A study of Mus musculus with 384 samples.

Results

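Otx2, Pou3f1, Zic2, Zic5 and Sall2 are 5 transcription factor genes of the post-implantation epiblast, and their transcript levels were examined in single cells of mouse formative stem (FS) cells and epiblast stem cells (EpiSCs). They were taken by symbol from the 31617 genes of the count table, where each symbol matched 1 gene identifier. For each of 4 lines, 96 sorted single cells were sequenced by Smart-seq2, a full-length method without molecular identifiers. The 326 of 384 cells with at least 3000000 counts were used. The FS cell lines 5ar1 (90 cells) and 5ar2 (90 cells) grew in A(lo)XR (A3XR in the labels), which contains 3 ng/ml activin A, 2 µM of the tankyrase inhibitor XAV939 and 1 µM BMS493, an inverse agonist of retinoic acid receptors. The EpiSC line AFX6 (66 cells) grew in AFX, with 20 ng/ml activin A, Fgf2 and 2 µM XAV939, and the EpiSC line AF32 (80 cells) in AF, which is the same without XAV939. The base N2B27 was common to the media, and the study used strains 129 and CD1 without a strain given for each line. Each EpiSC medium was represented by 1 line, so line and medium cannot be told apart there. FS cells and EpiSCs also grew in different media, so cell type and medium cannot be told apart in comparisons between them. The sample titles number 96 cells per line and name no plate. As the paper sorted cells into 96-well plates, 1 plate a line is inferred, and plate then cannot be told apart from line either. Cells of a line are not replicates of a condition.

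Otx2 is a homeodomain factor that is switched on as naive pluripotency is left and later patterns the anterior epiblast and brain. Pou3f1, also called Oct6, is a POU domain factor related to Oct4 that marks the early post-implantation epiblast and then neural progenitors. Zic2 and Zic5 encode zinc finger proteins of the Zic family, known for roles in neural tube closure and at enhancers of pluripotent cells, and Sall2 encodes a zinc finger repressor of the spalt family.

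Of the 5 genes, 4 lie on chromosome 14. In GRCm38 with GENCODE M21, Otx2 spans chr14:48657677-48673819 on the minus strand, Sall2 spans chr14:52311172-52328762 on the minus strand, Zic5 spans chr14:122456795-122465677 on the minus strand and Zic2 spans chr14:122475435-122479852 on the plus strand. Zic5 and Zic2 are neighbours transcribed away from each other, with 9757 bases between them. Pou3f1 spans chr4:124656807-124660655 on the plus strand and is annotated as 1 merged exon of 3849 bases. The annotation places Otx2os1 on the opposite strand over 154 exonic bases of Otx2, and Gm2164 on the opposite strand over 330 exonic bases of Pou3f1. The library does not keep strand, so reads in these stretches cannot be told apart. Otx2os1 was at 0.815 to 1.4 counts per 1000000 (CPM) of the summed counts of a line and Gm2164 at no more than 0.0534 CPM.

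Because the authors counted uniquely mapped reads only, the longest run of bases that a member shares exactly with a relative bears on whether reads of the 2 could be confused. These runs were found in the longest coding sequences of GENCODE M21, and the longest run of Pou3f1, Otx2 and Sall2 with a relative and the run shared by both Zic members are printed 5′ to 3′ in lower case. Zic2 and Zic5 shared at most 26 bases, while Zic2 shared longer runs with other relatives, among them 30 bases with Zic4, a gene at no more than 0.0092 CPM. Otx2 and Otx1 shared at most 18 bases. Pou3f1 shared 38 bases with Pou3f2, a gene at no more than 0.298 CPM in any line, and Sall2 shared at most 17 bases with Sall1.
Zic2 and Zic5: cgctccgagaacctcaagatccacaa
Pou3f1 and Pou3f2: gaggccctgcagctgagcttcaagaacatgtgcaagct
Otx2 and Otx1: tacccagacatcttcatg
Sall1 and Sall2: tgtcagaagaagttcac

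RefSeq start-site windows of GRCm38.p6, from 250 bases before to 50 after a start, were available for 3 of the 5 members (4 windows of Otx2, 2 of Sall2 and 1 of Zic5). They were searched on both strands for TAATCC, the core bound by Otx homeodomains, and for ATGCAAAT, the octamer bound by POU factors such as Pou3f1 and Oct4. TAATCC was found in 7.06% of all 32851 windows and the octamer in 1.735%. Of the 7 windows of members, 1 window of Otx2 held 1 match to TAATCC and none held the octamer, which says only that these letters are not in the window. The Otx2 window with the match, and the Zic5 window that faces Zic2, are shown on the minus strand, with the match (GGATTA, the reverse complement of TAATCC) in capitals.
Otx2, chr14:48665060-48665359: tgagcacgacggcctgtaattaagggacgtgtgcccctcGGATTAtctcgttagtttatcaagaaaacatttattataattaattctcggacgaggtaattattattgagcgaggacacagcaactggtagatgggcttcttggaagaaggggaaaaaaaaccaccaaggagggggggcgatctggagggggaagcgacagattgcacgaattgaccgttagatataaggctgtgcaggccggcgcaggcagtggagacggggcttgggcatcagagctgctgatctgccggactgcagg
Zic5, chr14:122465609-122465908: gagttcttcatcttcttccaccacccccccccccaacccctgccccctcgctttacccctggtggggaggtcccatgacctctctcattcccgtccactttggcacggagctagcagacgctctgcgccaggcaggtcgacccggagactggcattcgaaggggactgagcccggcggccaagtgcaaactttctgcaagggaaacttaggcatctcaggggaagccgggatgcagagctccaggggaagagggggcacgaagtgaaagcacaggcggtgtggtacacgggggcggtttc

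Pou3f1 differed most between FS cells and EpiSCs, Sall2, Zic2 and Otx2 were higher in both FS lines than in both EpiSC lines by smaller folds, and Zic5 was about level. Pou3f1 was at 64.3 CPM in 5ar1, 33 CPM in 5ar2, 3.83 CPM in AFX6 and 8.27 CPM in AF32, where CPM is computed on the counts summed over the cells of a line. Both FS lines were thus above both EpiSC lines, and the lower FS line was 3.98 times the higher EpiSC line. The log2 fold change of Pou3f1 (FS cells minus EpiSCs) was 3.00 ± 0.57 (SE, 2 lines against 2), with an adjusted p of 0.19 in the edgeR quasi-likelihood test over all 22606 genes tested.

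Sall2 was at 84.8 CPM in 5ar1, 83.8 CPM in 5ar2, 37.9 CPM in AFX6 and 47.5 CPM in AF32. The FS lines were nearly equal and the lower was 1.763 times the higher EpiSC line, and the log2 fold change was 0.98 ± 0.20 (SE, 2 lines against 2, edgeR adjusted p = 0.19). Otx2 was the most abundant member in every line, at 175.3 CPM in 5ar1, 178.0 CPM in 5ar2, 118.5 CPM in AFX6 and 110.3 CPM in AF32. Its levels were close within each cell type and did not overlap between them, with a log2 fold change of 0.62 ± 0.16 (SE, 2 lines against 2, edgeR adjusted p = 0.203).

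Zic2 was at 39.5 CPM in 5ar1, 33.8 CPM in 5ar2, 10.1 CPM in AFX6 and 23.7 CPM in AF32, so that the EpiSC lines differed more from each other than AF32 did from 5ar2. The log2 fold change of Zic2 was 1.1 ± 0.47 (SE, 2 lines against 2, edgeR adjusted p = 0.363). It was 1.831 without AF32 and 0.64 without AFX6. Zic5 was at 40.2 CPM in 5ar1, 35.2 CPM in 5ar2, 42.9 CPM in AFX6 and 45.0 CPM in AF32. Both EpiSC lines were above both FS lines by a small margin, where Zic2 at the neighbouring locus had both FS lines above, and the log2 fold change was −0.23 ± 0.20 (SE, 2 lines against 2, edgeR adjusted p = 0.701).

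**Figure D1:**
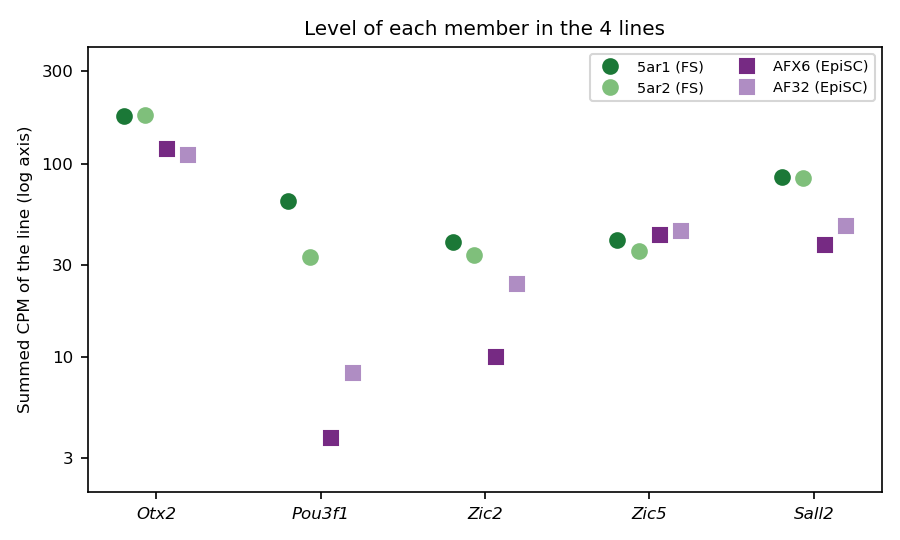
Level of each of the 5 members in each line, as CPM of summed counts on a log axis, with circles for FS cell lines and squares for EpiSC lines. Pou3f1 shows the widest gap, from 33 and 64.3 CPM in FS cells to 3.83 and 8.27 CPM in EpiSCs, while the 4 points of Zic5 lie between 35.2 and 45.0 CPM.

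No gene passed both thresholds of the edgeR test (adjusted p under 0.05 and absolute log2 fold change over 1.4), so 0 of 22606 genes (0%) were called, although 3636 genes had an unadjusted p under 0.05. DESeq2 on the same sums called 1808 genes (8.12% of those with an adjusted p), Pou3f1 among them, with a log2 fold change of 2.98 and a DESeq2 adjusted p of 1.35e-05. The DESeq2 adjusted p was 0.00308 for Sall2 and 0.0365 for Otx2, whose fold changes were under the threshold, and 0.162 for Zic2 and 0.608 for Zic5. The exact two-sided permutation test of 2 lines against 2 gave p = 0.333 for every member, the smallest p this design allows. Both FS lines were above both EpiSC lines for 4 of 5 members, as they were for 26.8% of all genes tested, and below for 1 of 5, as for 21.5% of all genes. Only Pou3f1 was at least 2-fold higher in both FS lines than in both EpiSC lines, which held for 7.9% of all genes. The median log2 fold change was 0.98 over the members and −0.01 over all genes tested. Labels and methods do not say that a line was sequenced from separate cultures, so these p-values measure the spread between 2 lines a group. In EpiSCs this spread includes that between the media AFX and AF.

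Within FS cells, Pou3f1 was the member that differed between the lines. Its level in 5ar1 was 1.954 times that in 5ar2 (95% interval 1.915 to 1.994). Of the 9119 genes of at least 10 CPM in either line, 3.91% were at least 2-fold apart between the 2 lines, a limit that Pou3f1 fell just short of. The folds of 5ar1 over 5ar2 for the other members lay between 0.985 for Otx2 and 1.169 for Zic2.

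Within EpiSCs, Pou3f1 and Zic2 were both higher in AF32 than in AFX6. The fold was 2.159 for Pou3f1 (95% interval 2.021 to 2.307) and 2.357 for Zic2 (95% interval 2.264 to 2.454). Of 9662 genes of at least 10 CPM in either EpiSC line, 11.3% were at least 2-fold higher in AF32 and 7.14% at least 2-fold higher in AFX6. Sall2 was 1.254 times higher in AF32, Zic5 was 1.05 times higher and Otx2 was at 0.931 of its AFX6 level. With all sorted cells, including those under the count minimum, the Pou3f1 fold was 1.427. There is 1 line a side in these folds, so none has a replicate check, and the intervals are exact conditional intervals that cover counting error only.

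Per kilobase of exon, the scale on which levels of different genes can be compared, Otx2 was first in every line, at 41.5 and 42.2 CPM per kb in 5ar1 and 5ar2 and 28.1 and 26.1 CPM per kb in AFX6 and AF32. In FS cells Sall2 (15.6 and 15.4 CPM per kb), Zic2 (13.7 and 11.7), Pou3f1 (16.7 and 8.55) and Zic5 (8.23 and 7.21) followed. The range of Pou3f1 over the FS lines covered Zic2 and Sall2, so the order of these 3 was not resolved. In EpiSCs Zic5 (8.77 and 9.21 CPM per kb in AFX6 and AF32), Sall2 (6.98 and 8.75) and Zic2 (3.50 and 8.24) had ranges that ran close together or overlapped. Pou3f1 was last in both EpiSC lines, at 0.996 and 2.2 CPM per kb.

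In single cells, the 95% intervals of the share of cells at 5 CPM or more were compared between lines. They were higher in both FS lines than in both EpiSC lines for Pou3f1, Otx2 and Sall2. They overlapped for Zic2 and Zic5. These intervals cover the sampling of cells within a line only and do not test FS cells against EpiSCs. Cells of a line are not replicates of a condition. Pou3f1 was at 5 CPM or more in 80.0% of 5ar1 cells (exact Clopper-Pearson 95% interval 70.3 to 87.7) and 74.4% of 5ar2 cells (64.2 to 83.1). The share was 22.7% of AFX6 cells (13.3 to 34.7) and 35.0% of AF32 cells (24.7 to 46.5). The median share over genes of like mean level was 88.9% and 74.4% in 5ar1 and 5ar2 and 12.1% and 25.0% in AFX6 and AF32, so the low shares in EpiSCs went with the low level. Among the cells at or above this level, the median was 55.5 CPM in 5ar1, 32 CPM in 5ar2, 12.8 CPM in AFX6 and 16.5 CPM in AF32, so the level per positive cell was lower in EpiSCs as well. The 10 highest cells held 73.4% of the summed per-cell CPM of Pou3f1 in AFX6 and 67.6% in AF32, compared with 39.2% in 5ar1 and 38.2% in 5ar2.

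Zic2 reached 5 CPM in 82.2% of 5ar1 cells (95% interval 72.7 to 89.5), 73.3% of 5ar2 cells (63.0 to 82.1), 30.3% of AFX6 cells (19.6 to 42.9) and 57.5% of AF32 cells (45.9 to 68.5). AFX6 stood below the other 3 lines, while the intervals of AF32 and 5ar2 overlapped. These intervals, too, cover the sampling of cells within a line only. Among genes of like mean level the median share was 78.9%, 75.6%, 27.3% and 47.5% in 5ar1, 5ar2, AFX6 and AF32. The Zic2 median among cells at or above 5 CPM was 38.4 CPM in 5ar1, 35.5 CPM in 5ar2, 27.5 CPM in AFX6 and 32 CPM in AF32, a much narrower range than that of the shares.

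Otx2 reached 5 CPM in 98.9% and 97.8% of 5ar1 and 5ar2 cells and in 80.3% and 76.2% of AFX6 and AF32 cells. Its cells ran from 1.238 CPM to 474.4 CPM in 5ar1 with a median of 159.1 CPM, and from 0.560 CPM to 457.8 CPM in 5ar2 with a median of 168.8 CPM. In AFX6 they ran from 0.189 CPM to 427.4 CPM around a median of 92.8 CPM, and in AF32 from 0 to 733.1 CPM around a median of 85.5 CPM. The upper ends overlapped across all 4 lines, and the EpiSC lines had 13 and 19 cells under 5 CPM, against 1 and 2 cells in the FS lines. Genes of like mean level had median shares at 5 CPM of 98.9% and 100% in 5ar1 and 5ar2 and 86.4% and 87.5% in AFX6 and AF32. Part of this contrast was thus common to genes of this level.

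Sall2 reached 5 CPM in 97.8% and 96.7% of 5ar1 and 5ar2 cells, 65.2% of AFX6 cells and 75.0% of AF32 cells. Its peers of like mean level had median shares of 93.3%, 94.4%, 57.6% and 68.8% in 5ar1, 5ar2, AFX6 and AF32. The Sall2 median was 81.0 CPM in 5ar1, 71.7 CPM in 5ar2, 20.2 CPM in AFX6 and 28.6 CPM in AF32, and the highest cell lay between 242.5 and 271.9 CPM in every line. Zic5 reached 5 CPM in 83.3%, 81.1%, 65.2% and 72.5% of cells of 5ar1, 5ar2, AFX6 and AF32, with medians of 33.8, 26.6, 31.0 and 33.6 CPM. Its near-equal line totals thus came from fewer cells at 5 CPM in AFX6 with a higher median among them. That median was 54.1 CPM in AFX6, compared with 43.9 CPM in 5ar1 and 33 CPM in 5ar2. Genes of like mean level had median shares of 78.9%, 76.7%, 62.1% and 65.0% in 5ar1, 5ar2, AFX6 and AF32. Lower EpiSC shares were thus not particular to Zic5. The median number of detected genes per cell was 11371 and 11567 in 5ar1 and 5ar2 and 10328 and 10330 in AFX6 and AF32.

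**Figure D2:**
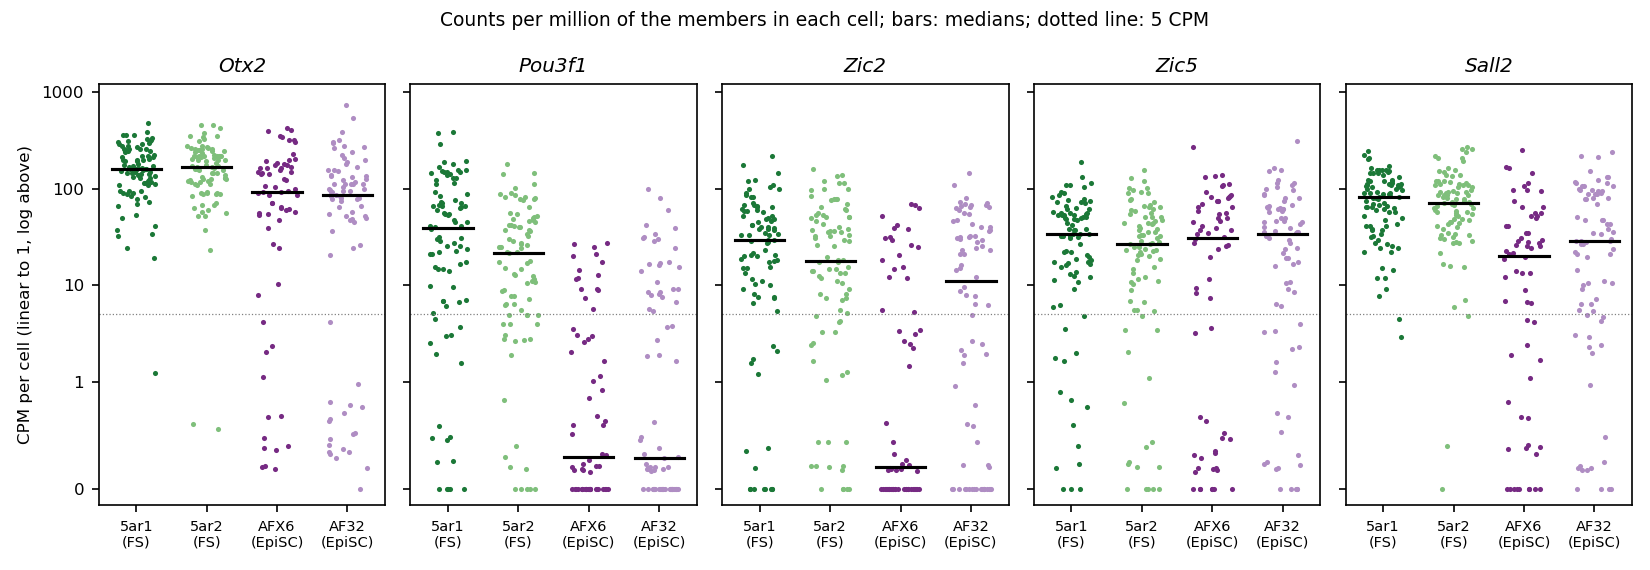
CPM of each member in each cell of the 4 lines, on an axis that is linear up to 1 CPM and logarithmic above, with a bar at the median and a dotted line at 5 CPM. The Pou3f1 medians are 39.3 and 21.8 CPM in 5ar1 and 5ar2 and 0.294 and 0.289 CPM in AFX6 and AF32, while Zic5 has medians of 26.6 to 33.8 CPM in all 4 lines.

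Shares of cells with any count were higher than these and less separated between the lines. Any Pou3f1 count was found in 94.4% of cells of each FS line and in 63.6% and 63.7% of AFX6 and AF32 cells. Y-linked genes gave a background for such shares, since they were at or under 0.295 CPM in AFX6 as a whole. Eif2s3y, at a mean of 104.4 CPM in the other 3 lines, had a count in 53 of 66 AFX6 cells (80.3%), but never more than 1.356 CPM, and none of the 4 Y-linked genes examined reached 5 CPM in an AFX6 cell. The shares of AFX6 cells with any count of those 4 genes ran from 1.515% to 80.3%, so shares of cells with any count are not read as expression here. Of the cells with a count of Pou3f1, 15 of 42 in AFX6 and 28 of 51 in AF32 were at 5 CPM or more, and of those with a count of Zic2, 20 of 39 and 46 of 61. This background was measured in AFX6 only. With depths of 3022666 to 6686007 counts per cell, a count of 0 allows up to 0.449 to 0.993 CPM in a cell, counting error only.

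The share of cells with all the members at this level was higher in both FS lines than in both EpiSC lines. All 5 members were at 5 CPM or more in 54 of 90 cells of 5ar1 (60.0%, exact 95% interval 49.1 to 70.2) and 44 of 90 cells of 5ar2 (48.9%, 38.2 to 59.7). This was so in 2 of 66 cells of AFX6 (3.03%, 0.369 to 10.5) and 7 of 80 cells of AF32 (8.75%, 3.59 to 17.2). Here again the intervals cover the sampling of cells within a line only, and the cell types were not tested against each other. The products of the 5 single shares were 53.0%, 41.9%, 2.348% and 8.34% in 5ar1, 5ar2, AFX6 and AF32. The contrast between the lines was thus largely that of the single shares. For each member, the median share over genes of like mean level was also lower in both EpiSC lines than in both FS lines. Otx2, Pou3f1 and Zic2 were at that level together in 67.8% and 60.0% of 5ar1 and 5ar2 cells and in 6.06% and 18.8% of AFX6 and AF32 cells. Neither Pou3f1 nor Zic2 reached it in 35 of 66 AFX6 cells and 25 of 80 AF32 cells, compared with 5 and 11 of the 90 cells of 5ar1 and 5ar2.

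**Figure D3:**
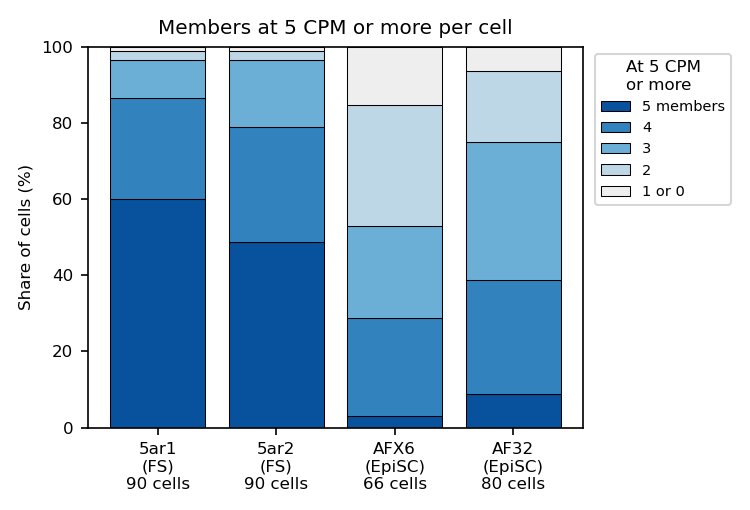
Share of the cells of each line, in percent, by the number of the 5 members at 5 CPM or more. All 5 members reached it in 60.0% and 48.9% of cells of the FS lines and in 3.03% and 8.75% of cells of the EpiSC lines.

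Cell-to-cell spread was given by the coefficient of variation (CV, SD over mean of CPM), set beside the median CV of all genes whose mean CPM was within a factor of 2 in the same line. Pou3f1 in 5ar1 had a CV of 1.204, compared with 0.793 for its 3779 peers, of which 93.5% had a lower CV. In 5ar2 its CV was 1.122, compared with 0.956. In EpiSCs, where its level was low, its CV was below the peer median, at 1.825 compared with 3.12 in AFX6 and 2.005 compared with 2.243 in AF32. Otx2 had CVs of 0.545 and 0.546 in 5ar1 and 5ar2, beside peer medians of 0.526 and 0.478, and of 0.936 and 1.123 in AFX6 and AF32, beside 0.829 and 0.800. In AF32, 90.9% of peers varied less than Otx2. Zic5 (0.871, 0.941, 1.175 and 1.163 in 5ar1, 5ar2, AFX6 and AF32) varied about as much as its peers (0.961, 0.919, 1.238 and 1.144). Zic2 had CVs of 1.033 and 1.115 in 5ar1 and 5ar2, beside 0.965 and 0.938, and of 1.823 and 1.232 in AFX6 and AF32, beside 2.207 and 1.469, so that it too was above its peers in FS cells and below them in EpiSCs. Sall2 had CVs of 0.629, 0.722, 1.393 and 1.1, beside peer medians of 0.711, 0.645, 1.327 and 1.094.

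Covariation of Otx2 and Pou3f1 with the Zic genes was examined as the Spearman rho of CPM over the cells of a line. This is a description, in which the cells of a line are taken to share a plate and a library preparation. Pou3f1 and Zic2 had the highest mean over the 4 lines of these pairs, 0.20 ± 0.18 (SD, n = 4 lines). The FS lines gave 0.31 (5ar1) and 0.38 (5ar2), and the EpiSC lines −0.02 (AFX6) and 0.11 (AF32). In 5ar1 and 5ar2 this lay above 98.8% and 99.5% of the rho values of Pou3f1 with 8742 protein-coding genes of at least 10 CPM, and in AFX6 above 22.0%. Pou3f1 and Zic2 thus varied together across cells in both FS lines and hardly so in the EpiSC lines, where 31 of 66 AFX6 cells and 55 of 80 AF32 cells reached 5 CPM of one or the other. The difference between the cell types was not tested. In both FS lines, high values of Pou3f1 and of Zic2 were more frequent among cells with later numbers in the titles. Cell number was not held constant in these rho values, and its part in them was not tested.

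In both FS lines the number of detected genes per cell and the level of GC-rich transcripts moved with Pou3f1 and Zic2. In the EpiSC lines some of these values were positive too, and that of Pou3f1 with detected genes was highest in AFX6. Pou3f1 had a rho with detected genes of 0.24, 0.43, 0.53 and 0.20 in 5ar1, 5ar2, AFX6 and AF32, and Zic2 of 0.16, 0.25, −0.11 and −0.07. The longest transcripts of Pou3f1 and Zic2 were 63.9% and 59.9% GC, above 99.7% and 96.2% of the genes compared. Their rho with the mean relative level of the 873 most GC-rich genes was 0.29 and 0.16 in 5ar1 and 0.30 and 0.29 in 5ar2, compared with 0.04 and 0.16 in AFX6 and −0.18 and −0.11 in AF32. With detected genes held constant, the partial rho of Pou3f1 and Zic2 was 0.29 in 5ar1 and 0.31 in 5ar2, and with the level of GC-rich genes held constant it was 0.28 and 0.32.

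**Figure D4:**
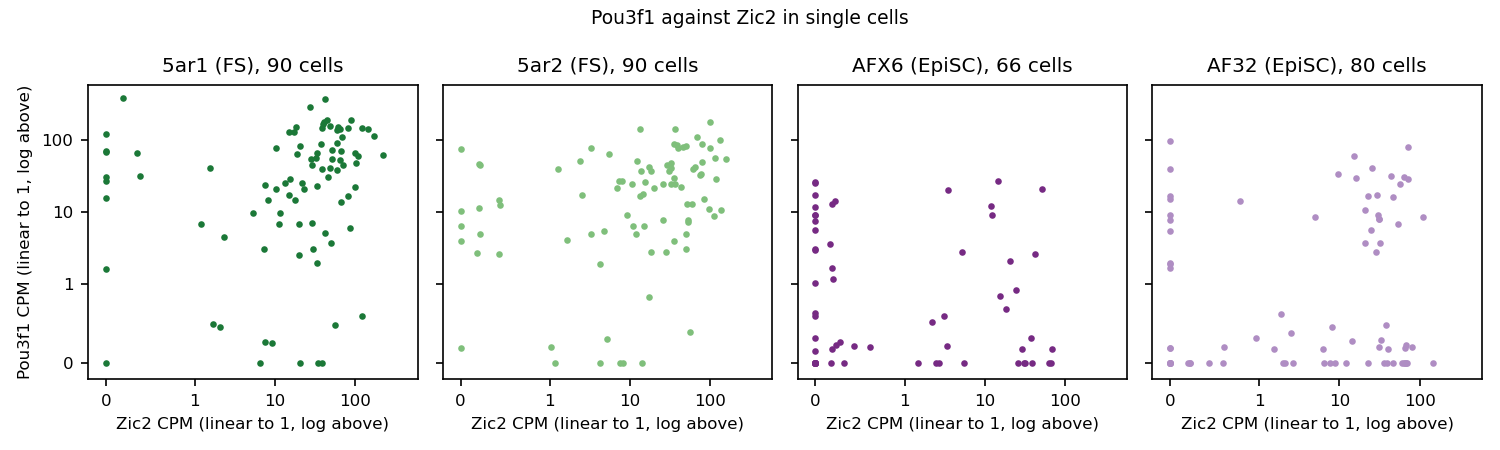
Pou3f1 against Zic2 in CPM, 1 point per cell, for each of the 4 lines, on axes that are linear up to 1 CPM and logarithmic above. Most cells of 5ar1 and 5ar2 lie at the upper right (rho 0.31 and 0.38), while many cells of AFX6 and AF32 lie along an axis (rho −0.02 and 0.11).

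The other pairs of Otx2 or Pou3f1 with a Zic gene gave no value that held over the lines. Otx2 and Zic2 had a rho of 0.35 and 0.12 in the FS lines 5ar1 and 5ar2 and of −0.06 and 0.02 in the EpiSC lines AFX6 and AF32, a mean of 0.11 ± 0.18 (SD, n = 4 lines) that fell to 0.02 without 5ar1. Pou3f1 and Zic5 had 0.26 in 5ar1 and 0.29 in AFX6 but −0.01 in 5ar2 and −0.05 in AF32. Otx2 and Zic5 were near 0 in both FS lines, 0.08 in AFX6 and 0.24 in AF32, with a mean of 0.08 ± 0.11. In each of these pairs the SD over lines was larger than the mean.

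Among the remaining pairs, only Otx2 and Sall2 had a positive rho in all 4 lines, 0.09 and 0.31 in 5ar1 and 5ar2 and 0.21 and 0.12 in AFX6 and AF32, with a mean of 0.18 ± 0.10 (SD, n = 4 lines). Zic2 and Zic5, the neighbours on chromosome 14, had 0.05, 0.17, 0.05 and −0.05, a mean of 0.05 ± 0.09. Otx2 and Pou3f1 had 0.20, −0.02, 0.23 and −0.04. Over all 10 pairs and 4 lines, 4 of 40 values were over 0.3, 30 were within 0.2 of 0, and the median was 0.07.

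**Figure D5:**
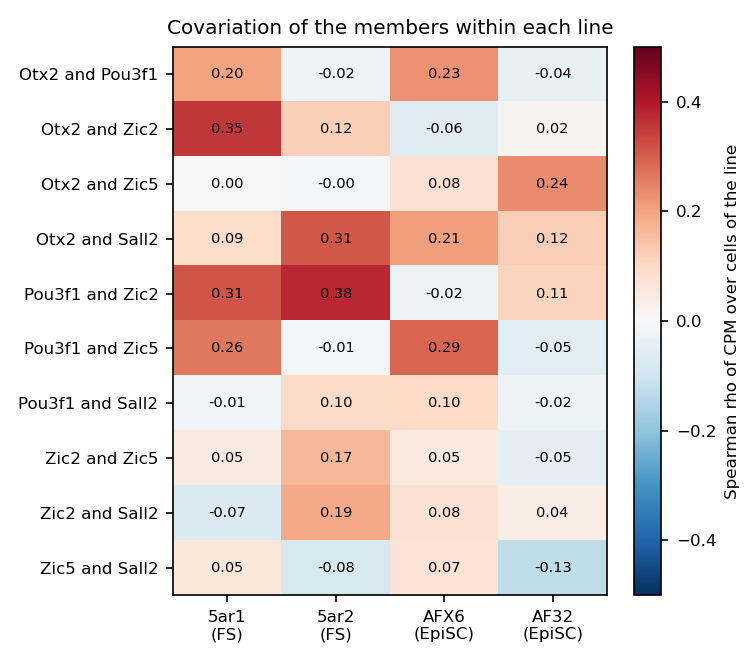
Spearman rho of CPM over the cells of each line for the 10 pairs of members, with red for positive and blue for negative values. Pou3f1 and Zic2 in 5ar1 and 5ar2, Otx2 and Zic2 in 5ar1 and Otx2 and Sall2 in 5ar2 are the 4 values over 0.3.

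Zic5 had a positive rho with the rest of chromosome 14 in both EpiSC lines. Detected genes were not held constant here, and their rho with Zic5 was 0.34 in AFX6, 0.06 in AF32, 0.31 in 5ar1 and −0.05 in 5ar2. The rho of Zic5 with the mean relative expression of the other genes of chromosome 14, set against the median of the autosomes, was 0.44 in AFX6 and 0.25 in AF32, and 0.00 and −0.12 in 5ar1 and 5ar2. The chromosome 14 ratio ran from 0.641 to 1.235 in AFX6 and from 0.720 to 1.4 in AF32, wider than the 0.799 to 1.137 of 5ar1 and the 0.797 to 1.186 of 5ar2. Zic2, 9.76 kb away, had values of −0.09 in AFX6, −0.02 in AF32, −0.23 in 5ar1 and −0.28 in 5ar2. Otx2 had values between −0.06 and 0.16 and Sall2 between −0.14 and 0.14. Of the 5 genes with the highest mean rho with Zic5, the first 3, Pxk (0.25), Xpo7 (0.25) and Kat6b (0.24), are also on chromosome 14, followed by Tiprl (0.22) and Pi4k2a (0.21). The lowest were Scand1 (−0.23), Taldo1 (−0.18) and Gnb1 (−0.17).

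The genes whose levels across cells were most like those of Pou3f1, by the mean over the 4 lines of the within-line rho, were Pcbp1 (0.39), Trim59 (0.39), Akirin2 (0.39), Arf6 (0.36) and Btbd2 (0.36). Trim59 was the steadiest of these, with 0.34 to 0.43 in every line, while Pcbp1 had 0.69 and 0.59 in 5ar1 and 5ar2 and 0.10 and 0.19 in AFX6 and AF32. The lowest were 3 genes of ribosomal proteins, Rps3a1 (−0.28), Rpl6 (−0.27) and Rpl19 (−0.25). For Zic2 the highest were Ythdf1 (0.32), Rhebl1 (0.29), Arf6 (0.27), Rnf126 (0.25) and Maz (0.24), so that Arf6, which encodes a small GTPase of the plasma membrane, stood in the lists of both Pou3f1 and Zic2. The lowest for Zic2 were Spaca6 (−0.20), Uros (−0.20) and Ptgis (−0.19). Of the highest genes, Pcbp1 (57.8% GC), Arf6 (60.0%), Btbd2 (61.6%), Rnf126 (62.7%) and Maz (63.6%) were above the 57.64% limit of the GC-rich genes, as Pou3f1 and Zic2 were. Trim59 (37.6%), Akirin2 (47.3%), Ythdf1 (49.1%) and Rhebl1 (49.2%) were below it. Neither detected genes nor the level of GC-rich genes was held constant in these rho values.

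For Otx2 the highest were Wdr86 (0.25), Dmd (0.24), Myb (0.23), Rragd (0.22) and Dnmt3b (0.21), the last a de novo DNA methyltransferase of the post-implantation epiblast. Dnmt3b had 0.19, 0.33, 0.15 and 0.18 with Otx2 in 5ar1, 5ar2, AFX6 and AF32. The lowest for Otx2 were Bex3 (−0.23), Vim (−0.21), which encodes vimentin, and Serpinh1 (−0.20), a collagen chaperone. For Sall2 the highest included Bivm (0.24), the mismatch repair gene Msh6 (0.22), Gtf2e1 (0.22) and Tmc4 (0.21), and the lowest were Psph (−0.27), Gch1 (−0.22) and Eif4ebp1 (−0.22). Each of these means is the extreme of 8742 values, so its size is a description of these cells.

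Of the core pluripotency genes, Sox2 had a positive rho with Pou3f1 in every line, 0.42 and 0.30 in 5ar1 and 5ar2 and 0.11 and 0.14 in AFX6 and AF32. Pou3f1 had a positive rho in every line with 7 of 21 relatives, epiblast genes and core genes compared, Sox2 among them. The same count was 10 of 21 for Sall2, 5 for Otx2, 5 for Zic2 and 1 for Zic5, so it was not particular to Pou3f1. Detected genes were not held constant in these values. Pou5f1, which encodes Oct4, had values between −0.14 and 0.08 with Pou3f1, and Nanog between −0.18 and 0.13. Of the core genes, Sox2 was above in both FS lines (17.4 and 17.5 CPM in 5ar1 and 5ar2, 4.88 and 12.8 CPM in AFX6 and AF32), Nanog was below in both (28.5 and 33.5 CPM against 158.6 and 399.9 CPM), and Pou5f1 overlapped, at 489.7 to 643.6 CPM over the 4 lines. The edgeR adjusted p was 0.482 for Sox2 and 0.19 for Nanog. Among all genes tested, 26.8% were above and 21.5% below in both FS lines.

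Most relatives of the members were at low levels. Of 16 genes of the Otx, Pou3f, Zic and Sall families, 15 were in the count table and 12 passed the filter on low counts. None was called by edgeR and 2 were called by DESeq2, Pou3f1 and Sall4, where DESeq2 called 8.12% of all genes. Both FS lines were above both EpiSC lines for 6 of the 12, compared with 26.8% of all genes tested, and the median log2 fold change was 0.45. Of those 6 genes, 4 were the members given above, and the others were Sall3 and Sall4. Sall4, a spalt factor of pluripotent cells, was at 189.5 and 190.4 CPM in 5ar1 and 5ar2 and at 39.3 and 97.6 CPM in AFX6 and AF32, and Sall1 at 28.7, 34.6, 17.3 and 48.6 CPM with overlapping groups. Sall3 was at no more than 4.94 CPM, Pou3f4 at no more than 1.254 CPM and Otx1 at no more than 1.141 CPM.

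In a list of 20 other genes of the formative and post-implantation epiblast, all of which were tested, none was called by edgeR and 3 were called by DESeq2, which called 8.12% of all genes. Both FS lines were above both EpiSC lines for 5 of 20, near the share over all genes, and the median log2 fold change was 0.23. Fgf5, a growth factor of the early post-implantation epiblast, was at 228.8 and 271.6 CPM in 5ar1 and 5ar2 and at 30.7 and 44.9 CPM in AFX6 and AF32 (log2 fold change 2.724 ± 0.26, SE). Dnmt3b (log2 fold change 1.723 ± 0.28, SE) and the Wnt effector Lef1 (1.506 ± 0.27, SE) were the others called by DESeq2. Sox4 (0.71 ± 0.18, SE) and Dnmt3l (2.224 ± 1.05, SE) were also higher in both FS lines. Dnmt3l was low, at 0.935 CPM in 5ar1, 5.36 CPM in 5ar2, 0.683 CPM in AFX6 and 0.663 CPM in AF32. Most of its fold change thus came from 5ar2. Utf1, Pim2, Etv4, Etv5, Foxd3, Tead2, Grhl2, Lin28b, Tcf15, Cdh2, Dnmt3a, Sox3, Sox11 and Sox12 had overlapping groups.

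Since Otx2, Pou3f1 and the Zic genes are also genes of the neural lineage, neural and other lineage markers were read in the same lines. Of 9 neural markers, 7 were tested, 2 were higher in both FS lines (26.8% of all genes were), none was called by edgeR and 1, Tubb3, was called by DESeq2 (adjusted p = 0.0324). Their summed level was 472.2 and 241.7 CPM in 5ar1 and 5ar2 and 122.1 and 178.9 CPM in AFX6 and AF32, most of it from Nes and Tubb3, with Tubb3 at 335.2, 129.9, 12.2 and 68.7 CPM. Defining neural genes were low, with Sox1 at 1.137, 2.7, 0.259 and 8.36 CPM, Pax6 at no more than 4.13 CPM and Neurog2 at no more than 0.195 CPM. The order of the lines for Tubb3 was that of Pou3f1 in FS cells and EpiSCs, and the part of this in the Pou3f1 result was not tested. Primitive streak markers summed to 14.7 CPM in AFX6 and 124.3 CPM in AF32, and to 67.9 and 59.9 CPM in 5ar1 and 5ar2. The AF32 total included T at 39.1 CPM and Fgf8 at 66.3 CPM, and the FS total was mostly Eomes, at 61.3 and 48.2 CPM. Naive, extraembryonic endoderm and trophoblast markers summed to between 0.924 and 8.21 CPM in each line.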

How the data were processed

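Raw counts per gene and cell were deposited by the authors, who aligned reads to GRCm38.p6 with STAR 2.7.3a and counted uniquely mapped reads with featureCounts 2.0.0 on Ensembl annotation. The authors also deposited sctransform values, a depth-corrected score per gene and cell, used here only as an alternative. No depth other than these counts was used, and reads were not processed again.

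CPM was computed per cell and, for line levels, on counts summed over the cells of a line with at least 3000000 counts. Lines were the replicates of the comparison (2 FS against 2 EpiSC lines), which was tested by edgeR 4.0.16 (TMM, filterByExpr, quasi-likelihood test, Benjamini-Hochberg adjustment) in R 4.3.3, with standard errors derived from the F statistic. DESeq2 1.42.0 and limma 3.58.1 were alternatives. The common dispersion of the line sums was 0.653. Intervals, rho values and permutation tests used scipy 1.17.1, and chromosome ratios used protein-coding genes of at least 20 CPM, each relative to its mean and limited to 3. Gene positions and sequences came from GENCODE M21 and RefSeq.

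The members and gene lists were chosen with earlier results of these data known. Genes named for likeness were the 5 highest and 3 lowest by mean within-line rho. A gene of these lists and a shared sequence run are not reported here.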

Additional observations from a re-analysis of the deposited data

How the results depend on the processing

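No paired analysis was possible because the cell numbers in the titles recur in each line. They name cells within a line and do not tie a cell of one line to a cell of another. The number of genes called was 0 in edgeR under TMM, DESeq2 size factors, no filter, the adjusted p alone, both other count minimums and thinning, in limma and without each line, and 1808 in DESeq2, where Pou3f1 was also called (log2 fold change 2.98); the cause was not tested. The log2 fold changes kept their direction under all 13 alternatives run for each member. Among these, the adjusted p alone changes only the rule for calling and so cannot move a fold change. The ranges were 2.4 to 3.63 for Pou3f1, 0.84 to 1.119 for Sall2, 0.54 to 0.70 for Otx2, 0.64 to 1.831 for Zic2 and −0.34 to −0.14 for Zic5. Leaving out AF32 or AFX6 moved the median log2 fold change of all genes to 0.21 or 0.17, and there the lone EpiSC line is assumed to vary like the FS lines. The mean rho of Pou3f1 and Zic2 ran from 0.13 to 0.27 over all alternatives, and no mean rho of Otx2 or Pou3f1 with Zic2 or Zic5 moved by more than its SD over lines. Of the other pairs, with cells holding both genes only, the mean rho was −0.03 for Pou3f1 and Sall2 and −0.06 for Zic2 and Zic5. Partial rho values on GC-rich genes were added after seeing the data. Of 60 values for shares of cells with a count, 24 moved outside the main interval, mostly at 5 CPM or after thinning, as the stricter limit or lower depth makes them. Of 40 values for folds between single lines, 16 moved outside the counting interval, and the folds of Otx2, which were under 1, came to 1.006 for AF32 over AFX6 with at least 4000000 counts and to 1.002 for 5ar1 over 5ar2 with all cells. There were 2 lines a group and 1 line per EpiSC medium, and the count minimum also bears on Pou3f1, whose log2 fold change was 2.4 and whose fold of AF32 over AFX6 was 1.427 with all cells.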
